A study of Schizosaccharomyces pombe with 6 samples.

Results

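The glycolytic enzyme genes of the fission yeast Schizosaccharomyces pombe were followed in poly(A)+ RNA libraries of a rad24 deletion strain and of wild type. The genes were taken by name and were hxk2, pgi1, pfk1, fba1, tpi1, tdh1, gpd3, pgk1, eno101 and pyk1, which are 10 of the 6986 genes counted. All 10 passed the filter on low counts. The mutant strain was h+ with rad24 replaced by the NatMX drug marker (rad24 deletion, n = 3 libraries), and the wild type strain was h+ with no further change given in the labels (n = 3). Both were sampled in log phase at 30 °C in YES, a rich medium. rad24 encodes a 14-3-3 protein, which binds phosphorylated partner proteins. Total counts per library were 19396868 to 21730112 in the mutant and 11539278 to 15282140 in wild type. The libraries of a genotype are labelled as replicate experiments without saying that they came from separate cultures, so each p-value speaks of the spread among these libraries alone. Counts of rad24 itself were 27, 39 and 15 in the mutant libraries and 22565, 18442 and 21135 in the wild type libraries, as the labels state.

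Glycolysis turns glucose into pyruvate and yields ATP and NADH. Its first steps spend ATP to make a phosphorylated sugar that is split into triose phosphates, and its later steps return ATP. Glyceraldehyde 3-phosphate dehydrogenase (GAPDH) stands where the pathway turns from spending to gaining, since it oxidises and phosphorylates the triose. Fission yeast has a pair of GAPDH genes, tdh1 and gpd3. Tdh1 is also known to take part in relaying hydrogen peroxide stress to the Sty1 MAP kinase pathway. Fission yeast ferments glucose to ethanol in rich medium, where glycolytic mRNAs are among its abundant mRNAs.

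The coding sequences of the GAPDH genes are shown first because their likeness decides which reads can be told apart. They were read from the RefSeq assembly ASM294v3, where each gene was found by its identifier, while the counts were made on ASM294v2, per the submitters' processing notes. The coding sequence of gpd3 (SPBC354.12) has 1008 bases and that of tdh1 (SPBC32F12.11) has 1011 bases, and both lie in a single coding segment on the plus strand of chromosome II. Aligned over 1011 columns they were identical at 940, with 68 mismatches and 3 gap positions, or 92.98% identity. Of the mismatches, 48 fell on the third codon position, 13 on the first and 7 on the second. The mismatches were unevenly spread. From the start to the end of the alignment, the 5 equal parts held 28, 19, 9, 3 and 9 mismatches. The stretch of 150 bases with the most mismatches (28, in capitals) covers coding positions 65 to 214 of both genes, at chrII:578795-578944 for gpd3 and chrII:2807701-2807850 for tdh1.
gpd3: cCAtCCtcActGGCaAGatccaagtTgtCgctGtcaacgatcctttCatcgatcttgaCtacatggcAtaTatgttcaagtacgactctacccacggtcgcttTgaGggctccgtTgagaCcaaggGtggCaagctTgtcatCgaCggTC
tdh1: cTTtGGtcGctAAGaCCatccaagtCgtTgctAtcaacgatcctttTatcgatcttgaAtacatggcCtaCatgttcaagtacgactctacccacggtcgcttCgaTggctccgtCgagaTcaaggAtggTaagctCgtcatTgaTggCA

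The longest run shared without a mismatch was 203 bases, at coding positions 577 to 779 of both genes (chrII:579307-579509 in gpd3 and chrII:2808213-2808415 in tdh1, plus strand).
gpd3 and tdh1: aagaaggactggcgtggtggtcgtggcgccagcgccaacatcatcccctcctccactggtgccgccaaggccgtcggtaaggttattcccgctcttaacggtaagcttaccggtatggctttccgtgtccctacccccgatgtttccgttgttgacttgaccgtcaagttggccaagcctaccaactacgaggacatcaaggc
In all, 234 of 959 windows of 50 bases along the gpd3 coding sequence (24.4%) and 234 of 962 along that of tdh1 (24.3%) occurred more than once in the genome. In the coding sequences of the other 8 genes no such window occurred more than once. Read pairs that fall wholly within the shared runs cannot be assigned to a GAPDH gene by sequence alone, while a mate that reaches a mismatch can place a pair. The windows cover coding sequence only, so their share is not the share of such pairs. The labels do not say how the authors' counting treated pairs within the runs. The levels of gpd3 and tdh1 thus carry an uncertainty that the other 8 do not.

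gpd3 was the glycolytic gene that separated the genotypes most. It had 113359, 100481 and 85341 counts in the mutant libraries, against 4000, 2423 and 2996 counts in the wild type libraries. Scaled to CPM, which are counts relative to the TMM-scaled library size, these were 4974, 4917 and 3974 CPM in the mutant and 277, 226 and 214 CPM in wild type. The lowest mutant library, replicate 3, lay far above the highest wild type library, replicate 1. The mean was 4622 ± 562 CPM in the mutant and 239 ± 33.1 CPM in wild type (SD, n = 3 each), a 19.3-fold rise (log2 fold change 4.27 with an SE of 0.11, edgeR quasi-likelihood test with Benjamini-Hochberg adjustment, adjusted p = 4.32e-13). Only 10 of the 6084 genes tested, gpd3 included, had a log2 fold change at least as high.

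The paralog tdh1 did not share this change. It had 75405, 67564 and 68136 counts in the mutant libraries, against 57884, 38347 and 45007 counts in the wild type libraries, which had fewer counts in all. Scaled, these were 3309, 3306 and 3173 CPM in the mutant and 4005, 3580 and 3222 CPM in wild type. The groups overlapped, since wild type replicate 3 lay below mutant replicates 1 and 2. The mean was 3262 ± 77.9 CPM in the mutant and 3602 ± 392 CPM in wild type (SD, n = 3 each), and edgeR gave a log2 difference of -0.14 (SE 0.07) with an adjusted p of 0.0707. The sign of this small difference depended on scaling. It was -0.16 with RLE factors (adjusted p = 0.0439), -0.16 with DESeq2 (adjusted p = 0.0159) and 0.02 with library size only (adjusted p = 0.74), where the median of all genes was 0.19, against 0.02 with TMM. Leaving out wild type replicate 3 gave -0.22 (adjusted p = 0.00464). The log2 ratio of tdh1 to pgk1 counts, which needs no scaling, was -0.27, -0.29 and -0.26 in the mutant libraries and -0.03, 0.01 and -0.15 in the wild type libraries. It was lower in every mutant library (exact permutation test, two-sided, p = 0.1, the smallest that 3 against 3 libraries allow). This direction depends on the choice of pgk1, whose own log2 fold change with TMM was 0.07. fba1 (-0.26) and pyk1 (-0.20) fell more than tdh1, so a ratio to either of them does not show tdh1 as the lower.

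Set against each other within a library, the paralogs need no scaling between libraries. gpd3 made up 60.1%, 59.8% and 55.6% of the summed gpd3 and tdh1 counts in the mutant libraries, against 6.46%, 5.94% and 6.24% in the wild type libraries. gpd3 was thus the more counted paralog in every mutant library and the less counted in every wild type library. The mean share was 58.5% ± 2.50 in the mutant and 6.22% ± 0.261 in wild type (SD, n = 3 each; exact permutation test, two-sided, p = 0.1, the smallest that 3 against 3 libraries allow). The log2 ratio of gpd3 to tdh1 counts averaged 0.50 ± 0.15 in the mutant and -3.92 ± 0.06 in wild type, a difference of 4.41 between the responses of the paralogs (exact permutation test, two-sided, p = 0.1). Scaling per kilobase of coding sequence cannot change this difference, since the lengths are the same in every library and cancel.

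The summed level of both GAPDH genes was 8282, 8223 and 7146 CPM in the mutant libraries, against 4282, 3806 and 3437 CPM in the wild type libraries. No library of a genotype overlapped the other genotype. The mean of 7884 ± 640 CPM in the mutant was 2.05 times the 3841 ± 424 CPM in wild type (SD, n = 3 each; exact permutation test, two-sided, p = 0.1). With library size only the difference in summed level was 4715 CPM, against 4043 CPM with TMM. Relative to pgk1, the gene of the next enzyme, summed GAPDH counts stood at a log2 ratio of 1.00 ± 0.07 in the mutant and 0.04 ± 0.08 in wild type. The 2 genes held 22.2% ± 0.431 of the counts of the 10 genes in the mutant and 11.6% ± 0.628 in wild type. For each of 12 such quantities computed, the smallest p that the design allows is 0.1 and the Benjamini-Hochberg adjusted value is at least 0.12.

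**Figure D1:**
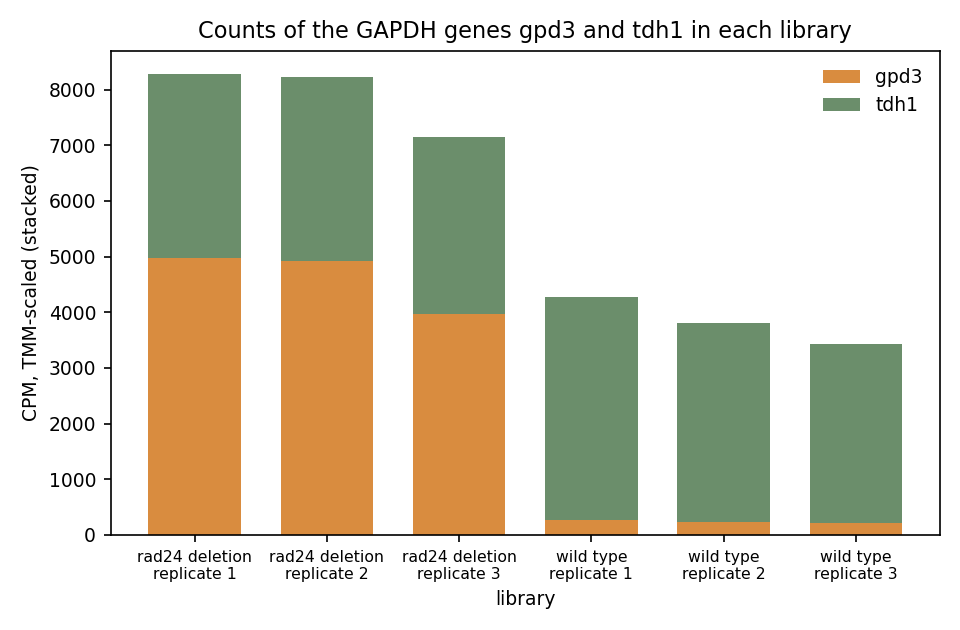
TMM-scaled counts (CPM) of gpd3 (lower segment) and tdh1 (upper segment), stacked for each of the 6 libraries. The gpd3 segment reaches 3974 to 4974 CPM in the rad24 deletion libraries and 214 to 277 CPM in wild type, while the tdh1 segments are of like height in all libraries.

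Of the 10 genes, 2 were higher and 2 lower in the mutant at an edgeR adjusted p below 0.05, and 6 did not pass. Over all genes tested the same rule called 78.3%, with 40.9% higher and 37.4% lower, so a call alone sets no gene apart here. The scaling moved both splits. With library size only, 6 of the 10 were higher and none lower (hxk2, pfk1, tpi1 and pgk1 joined gpd3 and pgi1), and higher genes were 67.0% of the calls over all genes, against 52.3% with TMM. With upper quartile factors 5 were higher and 1 lower, and higher genes were 61.1% of the calls. Without gpd3 the log2 fold changes of the other 9 ran from -0.26 to 0.34 with a median of 0.01, and the median of all genes tested was 0.02. The libraries of the genotypes did not overlap for 4 of the 10 genes, against 80.0% of all genes tested.

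Among the genes of the upper pathway, pgi1 rose and hxk2 and pfk1 did not pass the test. Hexokinase 2, encoded by hxk2, phosphorylates glucose on entry to the pathway. hxk2 had 823, 805 and 739 CPM in the mutant libraries and 812, 762 and 781 CPM in the wild type libraries. The groups overlapped, and edgeR gave a log2 difference of 0.01 (SE 0.05, adjusted p = 0.896). pgi1 encodes glucose-6-phosphate isomerase, which makes fructose 6-phosphate. It had 1904, 1935 and 1848 CPM in the mutant libraries, against 1536, 1441 and 1515 CPM in the wild type libraries. Every mutant library was above every wild type library, a 1.27-fold rise (log2 fold change 0.34 with an SE of 0.05, edgeR adjusted p = 1.10e-05). pfk1 encodes 6-phosphofructokinase, the enzyme that commits the sugar to glycolysis. It had 1750, 1813 and 1713 CPM in the mutant libraries and 1732, 1826 and 1612 CPM in the wild type libraries, which overlapped (log2 fold change 0.03 with an SE of 0.05, edgeR adjusted p = 0.617).

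At the step that splits the sugar, fba1 fell, and the gene after it did not pass the test. fba1 encodes fructose-bisphosphate aldolase. It had 7936, 7875 and 7026 CPM in the mutant libraries, against 9705, 8775 and 8836 CPM in the wild type libraries. Every mutant library was below every wild type library, and fba1 fell by 0.26 on the log2 scale (SE 0.06, edgeR adjusted p = 0.00238). This call was lost with library size only (log2 fold change -0.09, adjusted p = 0.115). tpi1, the gene of triosephosphate isomerase, which interconverts the triose phosphates, had 3504, 3412 and 2974 CPM in the mutant libraries and 3179, 3015 and 3062 CPM in the wild type libraries. The lowest of all 6 was mutant replicate 3, and without that library the log2 fold change was 0.17 (adjusted p = 0.0137), against 0.10 with it (SE 0.06, edgeR adjusted p = 0.17). The ratio of pgi1 to fba1 counts within a library needs no scaling. On the log2 scale it was -2.06, -2.02 and -1.93 in the mutant libraries and -2.66, -2.61 and -2.54 in the wild type libraries.

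After the GAPDH step, pyk1 fell and pgk1 and eno101 did not pass the test. pgk1 encodes phosphoglycerate kinase, which makes ATP from the GAPDH product. It had 3976, 4036 and 3787 CPM in the mutant libraries and 4092, 3558 and 3572 CPM in the wild type libraries, where replicate 1 was the highest of all 6 (log2 fold change 0.07 with an SE of 0.06, edgeR adjusted p = 0.287). Without that library the value was 0.14 (adjusted p = 0.0425). eno101 encodes enolase. It had 3509, 3347 and 2956 CPM in the mutant libraries and 3764, 3510 and 3311 CPM in the wild type libraries, which overlapped (log2 fold change -0.11 with an SE of 0.07, edgeR adjusted p = 0.152). pyk1 encodes pyruvate kinase, the last enzyme of the pathway. It had 5308, 5192 and 4786 CPM in the mutant libraries, against 6117, 6022 and 5381 CPM in the wild type libraries. No library overlapped, and pyk1 fell by 0.20 on the log2 scale (SE 0.06, edgeR adjusted p = 0.011). It no longer passed without mutant replicate 3 (-0.15, adjusted p = 0.0537), with library size only (-0.03, adjusted p = 0.563) or with upper quartile factors (-0.10, adjusted p = 0.149).

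**Figure D2:**
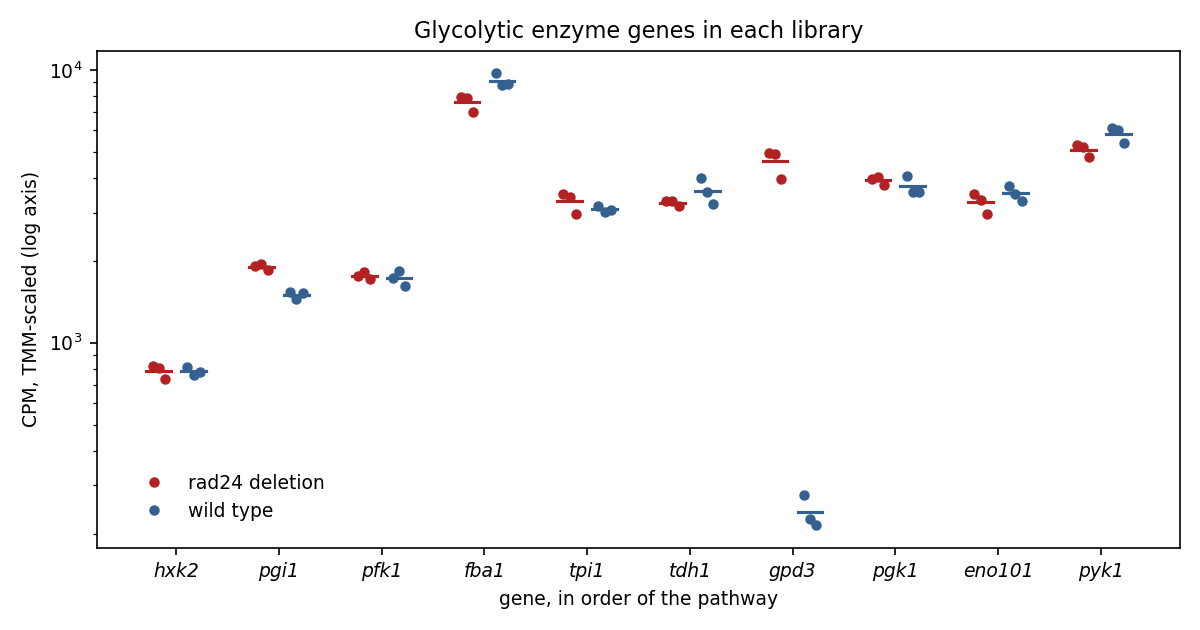
TMM-scaled counts (CPM, log axis) of the 10 genes in pathway order, with a point for each library and a bar at the mean of 3 libraries, rad24 deletion left and wild type right within each gene. The genotypes are far apart for gpd3, at 4622 against 239 CPM, and within a log2 fold change of -0.26 to 0.34 for the other 9.

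The authors' deposited table gives nearly the same fold changes with wider errors. For gpd3 the log2 fold change in the authors' deposited table was 4.27 with a standard error of 0.33 (adjusted p = 6.13e-36), and for pgi1 it was 0.34 with a standard error of 0.06 (adjusted p = 3.24e-08). For fba1 and pyk1 the authors' deposited table holds standard errors of 0.22 and 0.22, with adjusted p of 0.313 and 0.459. The authors' deposited table thus does not call these 2 genes, and it calls 59.0% of its genes. On the deposited counts DESeq2 called both lower, fba1 at -0.28 (adjusted p = 1.33e-06) and pyk1 at -0.22 (adjusted p = 0.000218), as did limma-voom. For tdh1 the authors' deposited table gives -0.14 with a standard error of 0.37 (adjusted p = 0.778).

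The genes also varied together between libraries of a genotype. Among the mutant libraries, replicate 3 was the lowest for 10 of the 10 genes, while 35.5% of all genes tested, and 67.3% of the 391 with a mean of at least 500 CPM, were lowest there. Among the wild type libraries, replicate 1 was the highest for 9 of the 10 genes (the exception was pfk1), against 31.0% of all genes tested and 21.7% of those with at least 500 CPM. The coefficient of variation within a genotype was largest for gpd3, at 12.2% in the mutant and 13.8% in wild type, and ran from 2.32% to 8.69% in the mutant and from 2.74% to 10.9% in wild type for the other 9.

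As a whole the 10 genes took 3.88%, 3.86% and 3.54% of all counts in the mutant libraries, against 3.33%, 3.04% and 3.02% in the wild type libraries. Every mutant library was higher (difference 0.63 percentage points, exact permutation test, two-sided, p = 0.1). Without gpd3 the shares were 3.36%, 3.34% and 3.11% in the mutant libraries and 3.30%, 3.02% and 3.00% in the wild type libraries. These overlapped, and the difference was 0.164 percentage points (exact permutation test, two-sided, p = 0.2). gpd3 alone took 0.489% ± 0.0538 of the counts in the mutant and 0.0226% ± 0.00312 in wild type (SD, n = 3 each).

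Levels were compared between genes per kilobase of coding sequence, with coding lengths from the ASM294v3 gene models. On this scale gpd3 averaged 4585 ± 557 CPM per kilobase in the mutant and 237 ± 32.8 in wild type. It was the second of the 10 genes in the mutant and the last in wild type. Among the protein-coding genes tested it ranked between 7 and 12 in the mutant libraries and between 698 and 952 in the wild type libraries. fba1 was the highest of the 10 in both genotypes, at 7068 ± 472 CPM per kilobase in the mutant and 8454 ± 483 in wild type. In the mutant the order went on from gpd3 to tpi1, pyk1, tdh1, pgk1, eno101, pgi1, pfk1 and hxk2, and the neighbours gpd3 and tpi1, pyk1 and tdh1, and tdh1 and pgk1 overlapped in their libraries. In wild type the order after fba1 was tpi1, pyk1, tdh1, pgk1, eno101, pgi1, pfk1, hxk2 and gpd3, with overlap between pyk1 and tdh1, tdh1 and pgk1, and pfk1 and hxk2. The genes other than gpd3 thus kept the same order of means, from 7068 to 577 CPM per kilobase in the mutant and from 8454 to 574 in wild type. These orders and ranks rest on coding length alone, while counts are per gene. The annotated gpd3 gene runs from chrII:578117 to 580056 with 1008 coding bases, and fba1 from chrII:1688321 to 1689599 with 1077. By whole gene length gpd3 could stand lower in the mutant, which was not tested.

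**Figure D3:**
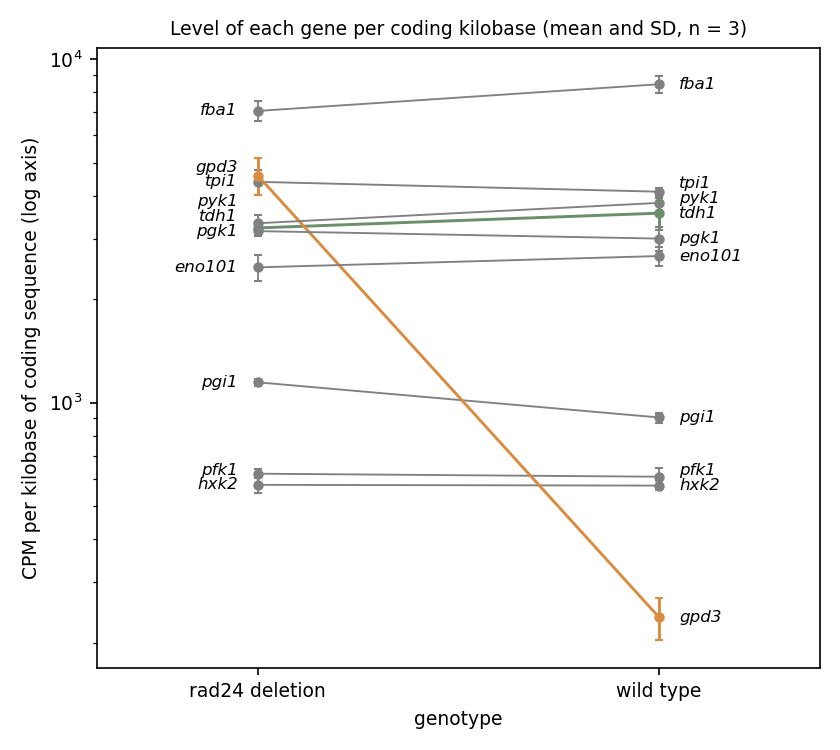
Mean level of each gene in CPM per kilobase of coding sequence (log axis, bars SD, n = 3), with rad24 deletion on the left and wild type on the right. The line of gpd3 crosses those of 8 of the other 9 genes, at 4585 in the rad24 deletion and 237 in wild type.

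The 250 bases before the annotated start of the GAPDH genes are shown because the paralogs, so alike in their coding sequence, differed in response. They lie at chrII:577867-578116 for gpd3 and chrII:2807345-2807594 for tdh1 (ASM294v3, plus strand), with the word TATAAA in capitals.
gpd3: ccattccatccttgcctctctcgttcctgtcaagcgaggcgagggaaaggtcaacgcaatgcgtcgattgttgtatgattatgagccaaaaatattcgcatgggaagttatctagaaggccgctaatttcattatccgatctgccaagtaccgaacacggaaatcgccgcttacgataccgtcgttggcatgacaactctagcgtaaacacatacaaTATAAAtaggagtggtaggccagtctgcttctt
tdh1: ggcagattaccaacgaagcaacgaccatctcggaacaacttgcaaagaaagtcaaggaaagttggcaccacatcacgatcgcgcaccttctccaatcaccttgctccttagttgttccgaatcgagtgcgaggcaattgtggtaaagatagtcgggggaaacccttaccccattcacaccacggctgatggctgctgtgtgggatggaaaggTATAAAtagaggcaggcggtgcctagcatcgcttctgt
Each window holds TATAAA once, 33 to 28 bases before the start in gpd3 and 38 to 33 bases before it in tdh1. Of the other glycolytic genes, pgk1 holds TATAAA 248 to 243 and 40 to 35 bases before its start. pyk1 holds TATAAA 33 to 28 bases before its start, on the opposite strand. This word, searched after the windows had been seen, stands on either strand in 44.4% of 5105 such windows of protein-coding genes. Neither GAPDH window holds TGACGT (in 5.52% of windows), CCCCTC (1.70%), TTCTTTGTT (1.63%), CACGTG (1.33%), or GAANNTTC or TTCNNGAA (16.6%), searched on both strands. TGACGT, the core of the word bound by ATF/CREB factors, stands in the windows of pfk1, fba1 and pgk1, in fba1 as overlapping matches on both strands. The window of fba1 also holds GAANNTTC or TTCNNGAA, a heat shock element word, and that of pgi1 holds CACGTG. A match here is a description of letters and not of a bound site.

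The other genes of the pathway and its branches were counted by list, and 28 of the 33 tested were called (84.8%, near the 78.3% of all genes). Over all genes tested, 40.9% were called higher and 37.4% lower. In the list of other glycolysis genes, 4 of 7 names were matched, 3 rose and 1 did not pass (median log2 fold change 0.50). 1 of the 4, SPBC1683.06c, proved to be urh1, a uridine ribohydrolase gene and no glycolytic gene, and it rose by 0.43 on the log2 scale. hxk1, the gene of the other hexokinase, had a mean of 832 ± 25.5 CPM in the mutant and 563 ± 7.81 CPM in wild type (SD, n = 3 each). It rose 1.48-fold (log2 fold change 0.56 with an SE of 0.04, edgeR adjusted p = 1.95e-08), while hxk2 did not pass the test. The subtelomeric enolase paralog eno102 rose 1.51-fold, to 11.6 ± 1.06 CPM in the mutant, against 7.69 ± 1.11 CPM in wild type, both far below eno101. gpm1, which encodes phosphoglycerate mutase between pgk1 and eno101, had a log2 fold change of -0.10 (edgeR adjusted p = 0.239).

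Most genes of the glycerol and trehalose list were higher. Of its 11 names 9 were matched. Of these 9 genes, all tested, 8 rose and 1 fell, against 40.9% of all genes called higher and 37.4% called lower. The median was 0.97, against 0.02 over all genes. The dihydroxyacetone kinase genes dak2 and dak1, whose enzymes make dihydroxyacetone phosphate, had means of 303 ± 29.7 and 899 ± 56.6 CPM in the mutant, against 60.3 ± 0.552 and 266 ± 8.44 CPM in wild type. dak2 rose 5.03-fold (log2 fold change 2.33, edgeR adjusted p = 1.16e-12) and dak1 3.38-fold (1.76, adjusted p = 1.67e-12). The glycerol dehydrogenase gene gld1 rose 2.29-fold to 20.0 ± 0.708 CPM in the mutant, against 8.77 ± 0.286 CPM in wild type. gpd1, which encodes glycerol-3-phosphate dehydrogenase and shares only its name with the GAPDH gene gpd3, rose 1.99-fold (log2 fold change 0.99 with an SE of 0.05, edgeR adjusted p = 1.91e-10). Its paralog gpd2 was the gene that fell (log2 fold change -0.27, edgeR adjusted p = 3.18e-06).

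In the pentose phosphate list, which branches off at glucose 6-phosphate, 5 of 8 names were matched, of which 3 rose and 1 fell (median 0.36). The counts of this list and of those that follow stand beside 40.9% of all genes called higher and 37.4% called lower. The gluconokinase gene idn1 (log2 fold change 0.83), the glucose-6-phosphate dehydrogenase gene zwf1 (0.61) and the phosphogluconate dehydrogenase gene gnd1 (0.36) rose. The ribose 5-phosphate isomerase gene rki1 fell by 0.31, all at edgeR adjusted p below 0.05. In the list of gluconeogenesis and pyruvate use, 1 of 8 rose and 6 fell (median -0.25). The malic enzyme gene mae2 rose 2.06-fold, to 2488 ± 54.2 CPM in the mutant, against 1206 ± 118 CPM in wild type. fbp1, the gene of fructose-1,6-bisphosphatase, which runs against Pfk1, fell by 0.70, and the pyruvate dehydrogenase complex genes lat1 (-0.39), pdb1 (-0.30) and pda1 (-0.17) fell with it. dld1, the dihydrolipoamide dehydrogenase gene of that complex, did not pass (log2 fold change 0.09, edgeR adjusted p = 0.0753). 1 of the 6, pck1, is here a protein kinase C gene that matched by name. In the fermentation list, which leads from pyruvate to ethanol, 2 of 7 rose and 3 fell (median -0.04). The alcohol dehydrogenase gene adh1 (log2 fold change 0.59) and the low-level pdc201 (0.56) were higher, and adh4 (-2.14) and pdc102 (-6.82) were among the lower. pdc101, by far the highest of the listed pyruvate decarboxylase genes, did not pass (log2 fold change -0.04, edgeR adjusted p = 0.61). It averaged 5443 ± 401 CPM in the mutant and 5598 ± 468 CPM in wild type. pdc102 was near the floor in the mutant, at 0.109 ± 0.0327 CPM, against 13.1 ± 1.20 CPM in wild type. The size of its fall is therefore uncertain.

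**Figure D4:**
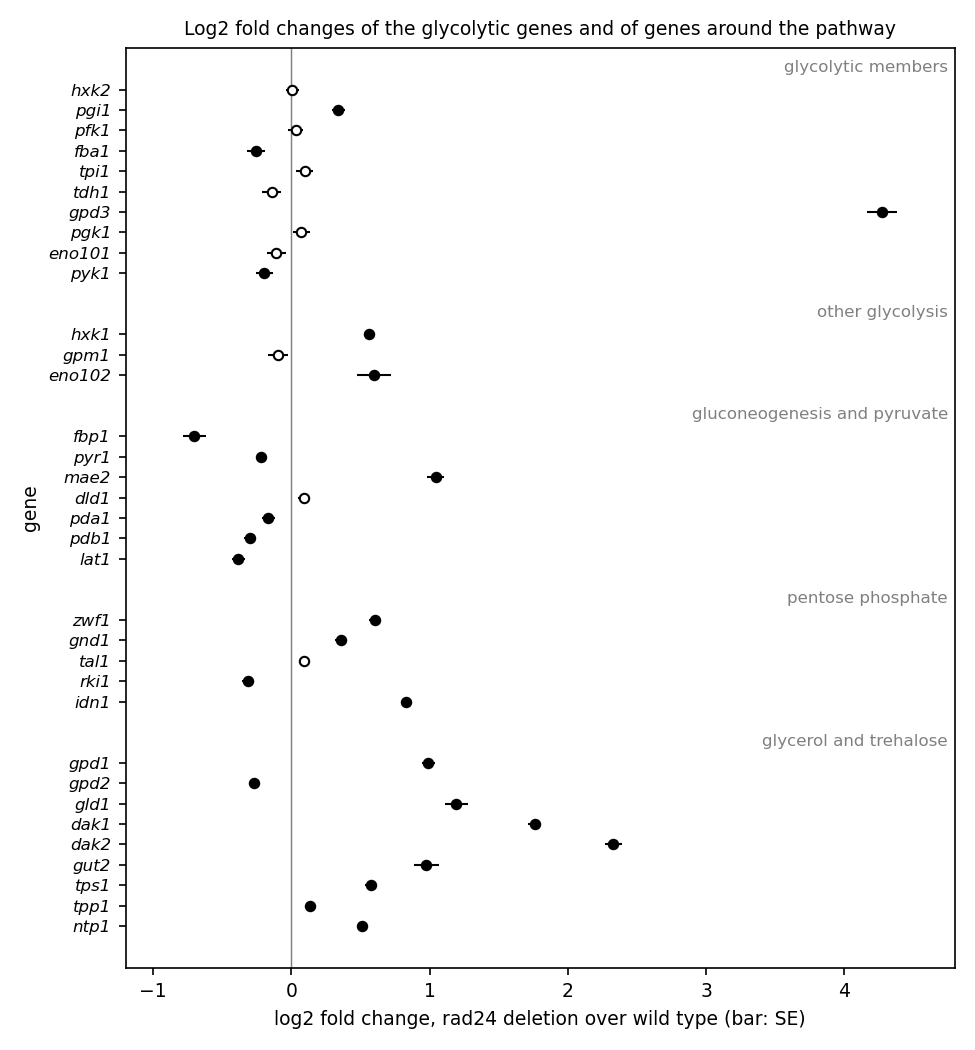
Log2 fold change, rad24 deletion over wild type, with its SE, for the 10 glycolytic genes and for 4 lists of genes around the pathway (urh1 and pck1 left out), where filled points passed an edgeR adjusted p below 0.05. gpd3 stands at 4.27, and the other 9 glycolytic genes stand between -0.26 and 0.34, while 8 genes of the glycerol and trehalose list lie to the right of 0.

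The genes whose profile over the 6 libraries was nearest to that of gpd3, by Euclidean distance of mean-centred log2 CPM among 3639 genes with a mean of at least 50 CPM, were brl1-antisense-1 (distance 0.43), tgp1 (0.65) and SPAC4H3.08 (0.72). They encode an antisense RNA, a glycerophosphodiester transporter and a predicted 3-hydroxyacyl-CoA dehydrogenase. brl1-antisense-1 averaged 116 ± 0.321 CPM in the mutant and 6.60 ± 1.60 CPM in wild type. Its reads may include some of brl1, since the labels do not say whether the counting used strand. The nearest to tdh1 were SPAC22E12.18 (distance 0.10), pno1 (0.11) and rpl701 (0.13), each with a log2 fold change between -0.21 and -0.09. No glycolytic gene was among the 3 nearest of either paralog. For gpd3 this was fixed by its log2 fold change of 4.27, since the other 9 glycolytic genes stood between -0.26 and 0.34. For tdh1, 3 places among 3639 genes are too few to say whether it follows the pathway.

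The annotated genes beside gpd3 were nearly silent. The lncRNA genes before and after it on the same strand, SPNCRNA.313 and SPNCRNA.315, had 2, 1 and 2 and 5, 7 and 9 counts in the mutant libraries, against no count of either in the wild type libraries. Both were below the filter and were not tested. The lncRNA gene SPNCRNA.1550, which ends before tdh1 with 1 base between them, rose by 0.36 on the log2 scale, to 9.21 ± 0.412 CPM in the mutant, against 7.12 ± 1.51 CPM in wild type (edgeR adjusted p = 0.0244). SPNCRNA.1551, after tdh1, averaged 1.03 ± 0.291 CPM in the mutant and 0.79 ± 0.125 CPM in wild type (adjusted p = 0.267). In ASM294v3 an antisense gene, SPNCRNA.4780, covers 643 bases of gpd3, and it is not a row of the count table analysed here.

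Markers of mating type cells and of spores moved as well, while both strains carried the same mating type label, h+. In bulk RNA, more cells of a type and more RNA per cell cannot be told apart. Each count below stands beside a background of 40.9% of all genes tested called higher and 37.4% called lower. The 3 P mating type markers rose, with summed levels of 690 to 832 CPM in the mutant libraries and 65.1 to 75.8 CPM in the wild type libraries. Of 8 spore and late meiosis markers 7 rose and 1 fell, with sums of 166 to 243 CPM in the mutant libraries and 61.5 to 63.2 CPM in the wild type libraries. The spore wall gene isp3 carried most of the mutant sum, at 128 ± 37.2 CPM in the mutant and 19.0 ± 0.683 CPM in wild type. Of 5 markers of M mating type cells 3 rose and 2 fell, with sums of 59.8 to 63.5 CPM in the mutant libraries and 87.0 to 99.3 CPM in the wild type libraries. No marker was at 0 in all libraries of a genotype. The part of such cells in the rise of gpd3 was not tested.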

How the data were processed

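Poly(A)+ RNA was purified with hot acid phenol and sequenced as pairs of reads from stranded libraries, per the labels' protocols. HISAT2 2.1.0, SAMtools, HTSeq 0.10.0, DESeq2 and the build ASM294v2 are named in the submitters' processing notes. The authors deposited raw counts per gene. The authors' deposited table holds a log2 fold change and its standard error per gene, p-values with adjusted values, a test score and mean normalized read signal, per the file headers. The score and signal were not used.

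Of 6986 genes, 902 were below filterByExpr and 6084 were tested with edgeR 4.0.16 (R 4.3.3, limma 3.58.1; TMM, quasi-likelihood, genotype as the only term). P-values were adjusted over all 6084 by the Benjamini-Hochberg method at 0.05. Each SE is the absolute log2 fold change divided by the square root of F and is smaller than in the authors' table for the genes reported, so it may overstate the precision. Values per library were compared by exact permutation in SciPy 1.17.1. Coding sequences were aligned with Biopython 1.88. In counts simulated at these depths, 88% of 1.25-fold and 98% of 2-fold changes were recovered among 6050 genes (50 changed genes each), with 10 false calls. The simulation gave every gene the same spread between libraries and changed few genes, while 78.3% were called in these data. Its rates of recovery and of false calls may therefore not hold for these libraries.

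The genes, the lists and the rule for named genes were chosen with earlier results of these data known. The rule names the 10 glycolytic genes, up to 4 called genes of each list with the largest change, the annotated neighbours of gpd3 and tdh1, their 3 nearest profiles, and rad24. gpm1, gpd2, pck1, pda1, dld1, pdc101, isp3, the genes that overlap glycolytic genes and the windows' words were named outside it after their values were seen. Alternatives were RLE, upper quartile and library size scaling, no filter, a filter of 50 counts, DESeq2 1.42.0, limma-voom, a replicate block, protein-coding genes only and each library left out. Within a genotype no pair of libraries agreed within sampling noise, with chi-square values of 2.41 to 7.77 per degree of freedom.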

Additional observations from a re-analysis of the deposited data

How the results depend on the processing

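The rise of gpd3 kept its direction and its call under all 15 alternatives, with log2 fold changes of 4.19 to 4.43, and that of pgi1 under all 15, with 0.31 to 0.50. The number of genes called over the genome was 4057 to 4874 under the alternatives (4766 as reported), and 26 to 30 genes of the other pathway lists were called. Without urh1 and pck1, an alternative chosen after seeing the data, 26 were called, against 28. Of the genes called, 52.3% were higher in the mutant with TMM, 61.1% with upper quartile factors and 67.0% with library size only. The difference in the gpd3 share of GAPDH counts was 51.5 to 53.7 percentage points with a library left out.

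Directions turned for genes near 0 (hxk2, pfk1, tdh1 and eno101). The log2 fold change of hxk2 was -0.014 with RLE factors and -0.014 with DESeq2, and -0.023 to 0.054 with a library left out, where that of pfk1 was -0.022 to 0.071. With library size only, tdh1 stood at 0.022 and eno101 at 0.054, against a median of 0.19 over all genes, and hxk2 (0.17), pfk1 (0.19), tpi1 (0.26) and pgk1 (0.24) passed the threshold. The causes were not tested. With the replicate number as a block, tdh1 (-0.14, edgeR adjusted p = 0.0261) and eno101 (-0.11, adjusted p = 0.0402) passed the threshold, and 4753 genes were called over the genome. Libraries of the same number showed little shared deviation over the genes tested (correlations -0.00136, -0.00287 and 0.0503). The labels do not say that the numbers pair libraries, and these correlations cannot settle whether they do. The glycolytic genes had at least 2423 counts in every library, while the lncRNA genes beside gpd3 had too few for a test.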
